A study of Mus musculus with 4 samples.

Results

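The data describe 10 genes that mark primordial germ cells and the pluripotency program which these cells carry, namely Pou5f1, Nanog, Sox2, Dppa3, Kit, Prdm1, Dnd1, Nanos3, Tfap2c and Ddx4, in whole mouse ovaries at E13.5. The genes were taken by name from the deposited table, which holds 34682 gene symbols, and all 10 were present and passed the filter on low counts that left 15442 genes. RNA was sequenced from 2 libraries of ovaries overexpressing Sall1 and 2 libraries of wild-type ovaries, numbered 1 and 2 in each genotype. The mutants carried a BAC, a large genomic clone, in which Wt1 regulatory elements drive the coding sequence of Sall1. Wt1 is active in the somatic cells of the gonad, so the construct was not designed to act in germ cells. The construct had been placed into female embryonic stem cells of C57BL/6J or C57BL/6J-129 origin with piggyBac transposition. Morula aggregation with these cells then gave transgenic mice. The sources used here do not say how many embryos, clones or integrations stand behind a library. They also do not say whether the sequenced embryos came directly from aggregation or from later breeding. Whether germ cells of a mutant ovary came from the transgenic or from host cells is likewise not stated. The controls are wild type and carry no construct, and the sources name them in different ways, as littermates, as CD1 and, in the column names, as B6.

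Primordial germ cells are set aside early in the embryo by Prdm1 and Tfap2c, transcriptional regulators that shut off the somatic program, and they keep the pluripotency factors Pou5f1, Nanog and Sox2 active while they migrate. After the cells reach the ovary they turn on Ddx4, an RNA helicase of the germline, and enter meiosis under retinoic acid and BMP signals, while the pluripotency factors are shut down. E13.5 lies in this transition, so the level of these genes in a whole ovary depends on the number of germ cells and on how far each has advanced. In libraries of whole ovaries, fewer cells of a type and less RNA per cell cannot be told apart.

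To show the regulatory starting point of the 3 pluripotency factors and of Ddx4, the 250 bases before the first annotated start of each gene are printed from RefSeq on GRCm38.p6, read 5′ to 3′ on the strand of the gene. The table of promoters held 7 of the 10 genes. Capitals mark matches to 4 short motifs, each searched on both strands: ATGCAAA for POU factors, ACAATG for SOX factors, GCCNNNGGC for TFAP2 factors and the E-box CACGTG.
Pou5f1, chr17:35505782-35506031, plus strand: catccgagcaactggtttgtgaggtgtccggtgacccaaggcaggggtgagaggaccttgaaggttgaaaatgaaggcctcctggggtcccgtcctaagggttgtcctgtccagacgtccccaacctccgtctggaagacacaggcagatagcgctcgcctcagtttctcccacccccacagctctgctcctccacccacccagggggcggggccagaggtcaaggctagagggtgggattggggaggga
Nanog, chr6:122707239-122707488, plus strand: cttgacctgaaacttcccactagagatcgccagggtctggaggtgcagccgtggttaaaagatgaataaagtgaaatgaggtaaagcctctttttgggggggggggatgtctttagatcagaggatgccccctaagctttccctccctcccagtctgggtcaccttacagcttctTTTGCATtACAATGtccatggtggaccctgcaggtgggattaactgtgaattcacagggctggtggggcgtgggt
Sox2, chr3:34649745-34649994, plus strand: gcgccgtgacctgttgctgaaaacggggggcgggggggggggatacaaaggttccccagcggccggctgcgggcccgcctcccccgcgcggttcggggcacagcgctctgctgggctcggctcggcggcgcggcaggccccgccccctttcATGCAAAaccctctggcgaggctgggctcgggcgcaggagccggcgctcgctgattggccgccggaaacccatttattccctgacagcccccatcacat
Ddx4, chr13:112652311-112652560, minus strand: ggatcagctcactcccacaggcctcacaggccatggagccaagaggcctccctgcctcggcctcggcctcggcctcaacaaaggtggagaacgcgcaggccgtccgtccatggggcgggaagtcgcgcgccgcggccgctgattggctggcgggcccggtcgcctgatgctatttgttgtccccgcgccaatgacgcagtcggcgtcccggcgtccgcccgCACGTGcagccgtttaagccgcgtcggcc
Nanog held a POU match directly beside a SOX match, 69 to 75 and 62 to 67 bases before the start, and these capitals run together around a single lower-case base. Sox2 held a POU match 93 to 99 bases before the start, and Ddx4 held an E-box 24 to 29 bases before it, while Pou5f1 held none of the 4 motifs in this window. Among 27025 genes, 4.07% held the POU letters, 10.9% the SOX letters and 6.04% the E-box, and the TFAP2 letters were held by 3652 genes. The windows of Ddx4 and Sox2 were rich in CpG, with 31 and 27 CpG sites, against 8 for Pou5f1, 3 for Nanog and a median of 6 over all genes. A match in these letters is a description and not a binding site.

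Total counts per library lay between 11036313 and 17869840, the mutant libraries being the shallower. Counts were scaled to CPM, the counts of a gene relative to a common library total, with TMM factors from 0.989 to 1.01, and the 3 counts used as the floor of detection corresponded to 0.170 to 0.272 CPM. Sall1 had 1243 and 1445 counts in the mutants and 279 and 223 in the wild types. Foxl2, a marker of pre-granulosa cells, had 46.3 and 44.1 CPM in the mutants and 28.0 and 32.0 CPM in the wild types. Of 10 tested pre-granulosa markers 7 were higher and 3 lower in the mutants, with 0 called by edgeR. Bmp2, among the lower, had 25.0 and 21.9 CPM in the mutants and 42.7 and 38.5 CPM in the wild types. With DESeq2, Bmp2 (adjusted p = 0.00933) and Lhx9 (adjusted p = 0.0240) passed as lower and Lgr5 (adjusted p = 0.00194) as higher. Amh of Sertoli cells had 3 counts in every library. Of 7 tested Sertoli markers 4 were higher and 3 lower in the mutants, with 0 called by edgeR. Ptgds, among the higher, had 3.45 and 4.45 CPM in the mutants and 1.16 and 1.19 CPM in the wild types. The germline genes Dazl and Ddx4 were among the well expressed genes, with 618 to 777 and 327 to 393 CPM.

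Levels are compared between genes only per length, as RPKM, which is CPM divided by the length of all exons in kilobases, with lengths of GENCODE M1 on NCBIM37 (mm9). Dppa3, a small maternal-effect protein that protects the genome during epigenetic reprogramming, was the most abundant of the 10 genes at 148 ± 15.6 RPKM (SD over 4 libraries). It was followed by Ddx4 at 126 ± 9.68, Pou5f1 at 47.9 ± 3.38 and Kit at 32.2 ± 2.56 RPKM. Lower levels were found for Dnd1 at 18.8 ± 0.975, Sox2 at 15.3 ± 2.79 and Tfap2c at 9.74 ± 2.36 RPKM. Prdm1 at 6.87 ± 0.434, Nanos3 at 4.25 ± 0.374 and Nanog at 3.83 ± 0.770 RPKM closed the order. The library ranges overlapped for 4 of the neighbouring pairs, Dppa3 with Ddx4, Dnd1 with Sox2, Tfap2c with Prdm1 and Nanos3 with Nanog. Within each library, Dppa3 still lay above Ddx4, Dnd1 above Sox2 and Tfap2c above Prdm1, in places by little. Nanog lay above Nanos3 in wild-type replicate 2 only, at 4.83 against 3.96 RPKM. The order within these pairs was not tested. Within the pluripotency trio the steps were wide, since the lowest library of Pou5f1 at 43.0 RPKM lay above the highest of Sox2 at 17.7, and the lowest of Sox2 at 12.4 above the highest of Nanog at 4.83. With the longest coding transcript as the length, Pou5f1 was at 80.2 RPKM and the order of the 10 genes was the same.

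On mm9, Nanog at chr6:122657507-122664651 and Dppa3 at chr6:122576428-122580290 lie on the same chromosome and strand. Pou5f1 lies at chr17:35642982-35647721, and Sox2, a gene of a single exon, at chr3:34548927-34551383. Tfap2c was found at chr2:172375093-172384122, Kit with 21 exons at chr5:75970941-76052747, and Prdm1 at chr10:44156983-44248307 on the minus strand. Nanos3 at chr8:86697632-86700451 and Ddx4 at chr13:113388541-113442518 are also on the minus strand. Of the 10 genes, 1 shared exon bases with another gene, which was Dnd1.

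**Figure D1:**
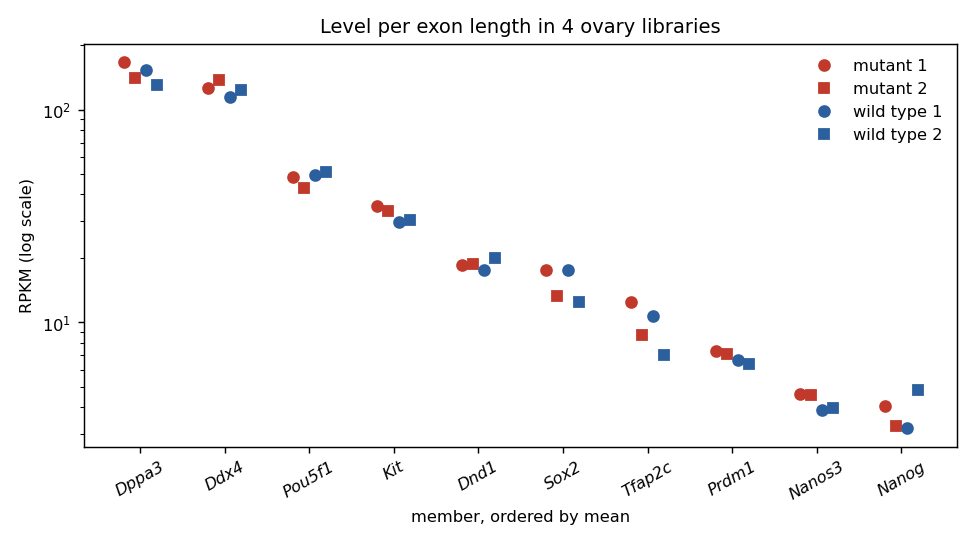
RPKM (log axis) of the 10 genes in each of the 4 libraries, ordered by mean, with mutants in red, wild types in blue, circles for number 1 and squares for number 2. The genes run from Dppa3 at a mean of 148 RPKM to Nanog at 3.83, and for every gene the 4 libraries lie close together relative to this range.

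The first comparison asks whether overexpression of Sall1 in ovarian somatic cells was accompanied by a different level of these germ cell genes. None of the 10 passed: 0 members had an adjusted p under 0.05 in edgeR's quasi-likelihood test (all genes: 0.0583% called), 0 had an unadjusted p under 0.05 (all genes: 5.69%), and 0 were called by DESeq2 (all genes: 0.694%). The smallest adjusted p was 0.938, for Kit. In 7 genes the fitted level was higher and in 3 lower in the mutants, with log2 fold changes between -0.14 and 0.24 and a median of 0.13, against -0.00088 over all genes tested. The mutant libraries lay outside the wild-type range for 5 of the 10 genes, 4 higher and 1 lower, and over all genes tested this held for 30.9%. With each library left out in turn, 0 members were called in every case.

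Of the pluripotency trio, Pou5f1, the POU factor at the core of the network, had 109 and 97.1 CPM in the mutants and 112 and 115 CPM in the wild types. Both mutant libraries were below both wild-type libraries, by a margin that was small for mutant replicate 1. The log2 fold change was -0.13 (standard error 0.10), and its 95% interval reached from 0.775-fold to 1.07-fold. Sox2, the partner of Pou5f1 on composite sites, had 43.6 and 32.7 CPM in the mutants and 43.2 and 30.5 CPM in the wild types. The genotypes overlapped fully and each held a high and a low library, and the fitted log2 difference was 0.04 (standard error 0.21). Nanog, the homeodomain factor of the trio, rested on 100 to 191 counts and had 9.07 and 7.31 CPM in the mutants and 7.15 and 10.8 CPM in the wild types. The wild-type libraries enclosed both mutants, and the 95% interval of the change, 0.587-fold to 1.41-fold, was correspondingly wide.

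Of the specification factors, Prdm1, the zinc finger repressor of somatic genes, had 40.4 and 39.0 CPM in the mutants and 36.6 and 35.1 CPM in the wild types. The groups did not overlap, but the difference of 0.15 on the log2 scale (standard error 0.11) did not pass (edgeR, adjusted p = 1.00). Tfap2c, which acts with Prdm1, had 45.7 and 32.1 CPM in the mutants against 39.6 and 25.8 CPM in the wild types. Here the spread within a genotype exceeded the difference between them, and the log2 fold change of 0.24 (standard error 0.24) had an interval from 0.796-fold to 1.77-fold.

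The RNA-binding members are Dnd1 and Nanos3, which protect germ cells from death, and the helicase Ddx4. Dnd1 had 45.0 and 45.4 CPM in the mutants and 42.6 and 48.3 CPM in the wild types, and the fitted difference, -0.0085 on the log2 scale (standard error 0.12), was the smallest of the 10. Its exons share 38 bases with Wdr55 on the opposite strand, and the strand setting of the counting is not given, so a small part of its counts is uncertain. Nanos3 had 37 and 50 counts, or 3.36 and 3.32 CPM, in the mutants and 49 and 51 counts, or 2.85 and 2.89 CPM, in the wild types. The libraries did not overlap, yet with so few counts the 95% interval ran from 0.709-fold to 1.91-fold. Ddx4 had 361 and 393 CPM in the mutants and 327 and 350 CPM in the wild types. All mutant values lay above the wild-type values, but the log2 difference of 0.16 (standard error 0.09) did not pass (edgeR, unadjusted p = 0.136, adjusted p = 1.00).

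Dppa3 had 149 and 126 CPM in the mutants and 136 and 116 CPM in the wild types, and the groups overlapped (log2 fold change 0.12, standard error 0.12). Kit, the receptor tyrosine kinase through which germ cells receive survival signals, had 206 and 195 CPM in the mutants and 174 and 178 CPM in the wild types. Both mutant libraries were above both wild types, the log2 fold change was 0.19 (standard error 0.09), and the 95% interval from 0.987-fold to 1.32-fold reached just below no change. Its ligand was not readable, since Kitl had 2 to 4 counts and its synonym Kitlg was a separate row of the table. None of the synonyms that RefSeq gives for the 10 members was a row of the table. Kit is also made by mast and blood progenitor cells, whose 6 tested markers were all lower in the mutants, between -2.12 and -0.021 on the log2 scale, with 0 called by edgeR. Their summed level was 163 and 139 CPM in the mutants and 178 and 162 CPM in the wild types, a sum that Gata2 and Cd34 made up for the most part, with log2 differences of -0.021 and -0.048. The other markers differed more, Mpo with 2.27 and 1.00 CPM in the mutants and 9.07 and 4.87 CPM in the wild types (edgeR, adjusted p = 0.356, and DESeq2, adjusted p = 0.0226). Cpa3 had 1.54 and 0.332 CPM against 3.84 and 3.46 CPM, and Tal1 a log2 difference of -0.91. The part of these cells in the Kit values was not tested.

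**Figure D2:**
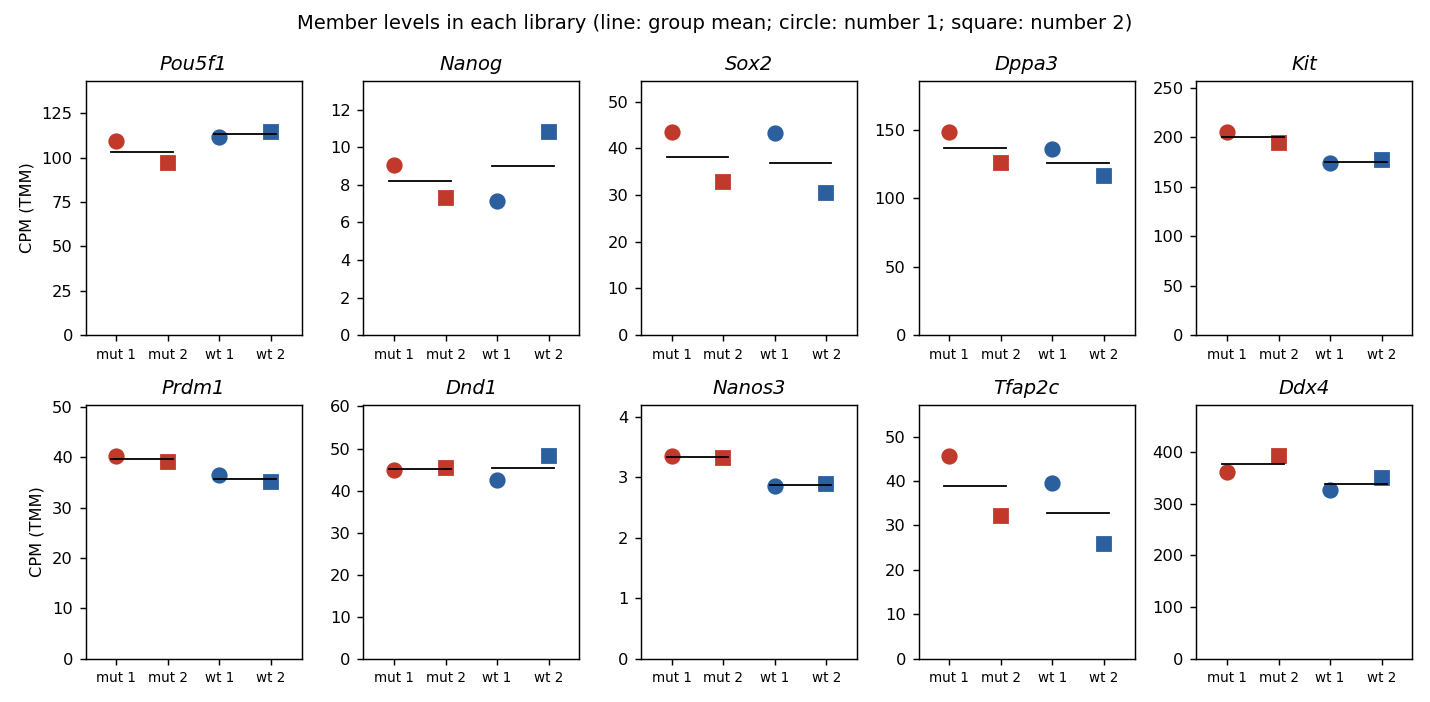
CPM of each gene in the 4 libraries, each axis starting at 0, with mutants in red, wild types in blue, circles for number 1, squares for number 2 and a line at the group mean. For Sox2 and Tfap2c the squares lie below the circles in both genotypes, whereas for Kit, Prdm1, Nanos3 and Ddx4 the red points lie slightly above the blue points.

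The related gene lists were read in the same way. Of 24 tested pluripotency factors outside the 10, 15 were higher and 9 lower in the mutants, with 0 called and a median log2 fold change of 0.050. Tbx3 had the smallest p among them, with 5.99 and 5.78 CPM in the mutants and 8.37 and 8.39 CPM in the wild types (log2 fold change -0.51, adjusted p = 0.871, edgeR). Of 21 further primordial germ cell genes, 8 were higher and 13 lower, again with 0 called and a median of -0.055. The smallest p among them was that of Bmp4, a somatic signal that induces germ cells, with 8.26 and 11.2 CPM in the mutants and 4.59 and 5.16 CPM in the wild types (log2 fold change 1.00, adjusted p = 0.428, edgeR). Of 12 germline genes used as a reference for germ cell RNA, 9 were higher and 3 lower with 0 called, and of 19 meiotic genes 12 were higher and 7 lower with 0 called. Of 7 genes of male germ cell differentiation 2 passed the filter, Piwil4 with 29 to 50 counts and Nodal with 11 to 19 counts, with 0 called. Among the others, Nanos2 with 1 to 6 counts and Dnmt3l with at most 1 were near the floor in both genotypes.

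The same counts were also set against the germ cell RNA in each library, taken as the summed counts of the 12 reference genes, a sum that does not include any of the 10 members. Dazl made up a large part of this sum, 6813 of 14281 and 11249 of 24453 counts in the mutants. In the wild types it gave 11152 of 24365 and 13710 of 26712 counts. Ddx4 amounted to 27.9 and 24.2 counts per 100 reference counts in the mutants and to 23.1 in both wild types. Its groups did not overlap. For Pou5f1 the values were 8.42 and 5.97 in the mutants and 7.88 and 7.57 in the wild types, so that the groups overlapped. Kit stood at 15.9 and 12.0 in the mutants and at 12.3 and 11.7 in the wild types, also overlapping. On this scale the members with groups that did not overlap were Ddx4 and, of the 9 others, Nanos3, against 19.7% of all genes tested. With Ddx4 alone as the reference these were 2 of 9, Pou5f1 and Dnd1, both lower in the mutants, against 44.6% of all genes tested. The reference itself was lowest in mutant replicate 1, at 1296 CPM, against 1625 CPM in mutant replicate 2 and 1416 and 1514 CPM in the wild types. Within the mutants 10 of its 12 genes were higher in replicate 2, with a median log2 difference of 0.22. Within the wild types 8 were lower in replicate 2, with a median of -0.14. By number 1 of the 12 was called, Tdrd12, which was lower (edgeR, adjusted p = 0.0183). How well the sum measures the amount of germ cells was not tested.

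The second comparison sets the libraries numbered 2 against those numbered 1, with genotype in the model. The labels do not say what the number stands for, and the comparison describes these libraries and no condition. In edgeR's test 2 of the 10 genes passed, Sox2 and Tfap2c, both lower in the libraries numbered 2. Over all genes tested 4.29% were called and 2.73% were called lower. The call depended on the model, since 0 of the 10 passed with DESeq2 (all genes: 0.72%) and 0 with edgeR without a genotype term (all genes: 0.0259%). The libraries of the 2 numbers did not overlap for 4 of the 10 genes, 3 lower and 1 higher, against 45.4% of all genes tested.

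Tfap2c had 45.7 CPM in mutant replicate 1 and 32.1 in mutant replicate 2, and 39.6 and 25.8 in the corresponding wild types. The libraries numbered 2 were lower in both genotypes, by 0.51 in the mutants and 0.61 in the wild types on the log2 scale. In the fit this amounted to -0.56 on the log2 scale (edgeR, standard error 0.11, adjusted p = 0.00779), a level of 0.676-fold. Sox2, with the CPM values given above, differed by -0.41 in the mutants and -0.50 in the wild types, and the fit gave -0.46 (edgeR, standard error 0.11, adjusted p = 0.0254), a level of 0.728-fold. For both genes the fitted change by number was larger in size than that by genotype, 0.04 for Sox2 and 0.24 for Tfap2c, and the 2 changes were not tested against each other. Dppa3 was lower in both pairs as well, by 0.24 and 0.23 on the log2 scale, but did not pass (log2 fold change -0.23, standard error 0.08, adjusted p = 0.133, edgeR). With DESeq2 the log2 fold changes were -0.55 for Tfap2c (adjusted p = 0.342) and -0.45 for Sox2 (adjusted p = 0.716).

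The other 7 genes did not pass, and their directions were mixed. Pou5f1 was lower by 0.17 in the mutants and higher by 0.038 in the wild types on the log2 scale, and the 95% interval of its fitted change was 0.842-fold to 1.09-fold. Nanog was lower by 0.31 in the mutants and higher by 0.59 in the wild types. Kit and Prdm1 had fitted log2 fold changes of -0.023 and -0.055, Nanos3 of 0.0039, Dnd1 of 0.10 and Ddx4 of 0.11. Pou5f1 and Sox2, which bind composite sites together, were not tested against each other, and the interval of Sox2 was 0.620-fold to 0.854-fold.

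**Figure D3:**
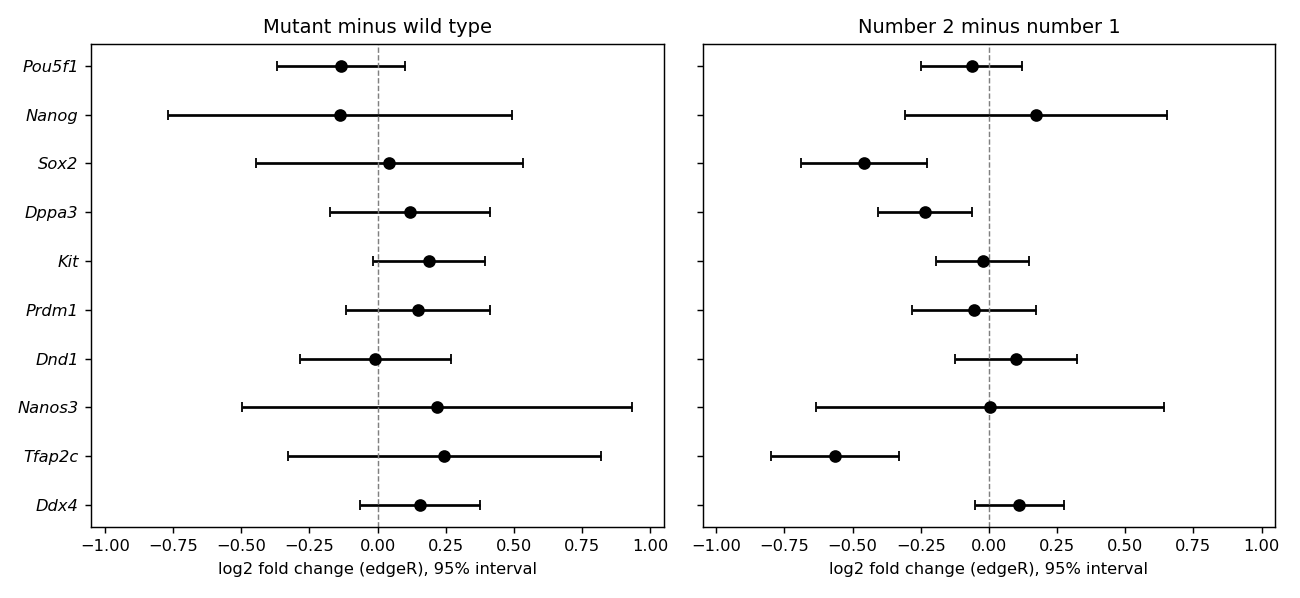
Log2 fold change (x axis, edgeR) of each gene with its 95% interval, for mutant minus wild type on the left and number 2 minus number 1 on the right. Every interval on the left includes 0, and on the right those of Sox2, Tfap2c and Dppa3 lie below 0.

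Over all genes tested, 7934 of 15442 had a lower fitted level in the libraries numbered 2, with a median log2 fold change of -0.0077. Among the 24 other pluripotency factors, 23 had a lower fitted level, with a median of -0.25. Of these, 4 were called, all lower. Sall4, a zinc finger partner of Pou5f1 and a relative of Sall1, had 168 and 154 CPM in the libraries numbered 1 and 108 and 104 CPM in those numbered 2 (log2 fold change -0.60, adjusted p = 0.000445, edgeR). Dppa5a and Dppa2 were also among the called genes, at -0.48 and -0.46. The lower level was seen for 23 of the 24 genes within the mutants and for 19 within the wild types, with medians of -0.36 and -0.11. Of the further primordial germ cell genes, Alpl, the alkaline phosphatase long used to stain these cells, was the 1 called (log2 fold change -0.40, adjusted p = 0.0122, edgeR), and 11 of 21 were lower.

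Meiotic genes differed in the opposite direction in the fit. Over all 15442 genes tested, 7508 were higher in the libraries numbered 2 and 241 were called higher. Of 19 tested meiotic genes, 14 were higher in the libraries numbered 2, with a median of 0.22, and 3 were called, all higher. These were Stra8, the gatekeeper of meiotic entry (log2 fold change 0.47, adjusted p = 0.0244, edgeR), Prdm9, which places recombination sites (1.12, adjusted p = 0.0258), and Sycp2 of the synaptonemal complex (0.76, adjusted p = 0.0362). This pattern was uneven between the genotypes. Within the mutants 16 of the 19 genes were higher in number 2, with a median of 0.77, whereas within the wild types 6 were higher and 13 lower, with a median of -0.25. Prdm9 had 7.89 and 33.4 CPM in mutant replicates 1 and 2, but 14.9 and 18.8 CPM in the wild types. Sycp3 had 44.9 and 60.9 CPM in the mutants and 73.4 and 37.9 CPM in the wild types, that is, opposite directions. Dazl, the RNA-binding licensing factor, was higher in number 2 in both genotypes, by 0.27 and 0.26, and did not pass (adjusted p = 0.0648, edgeR).

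**Figure D4:**
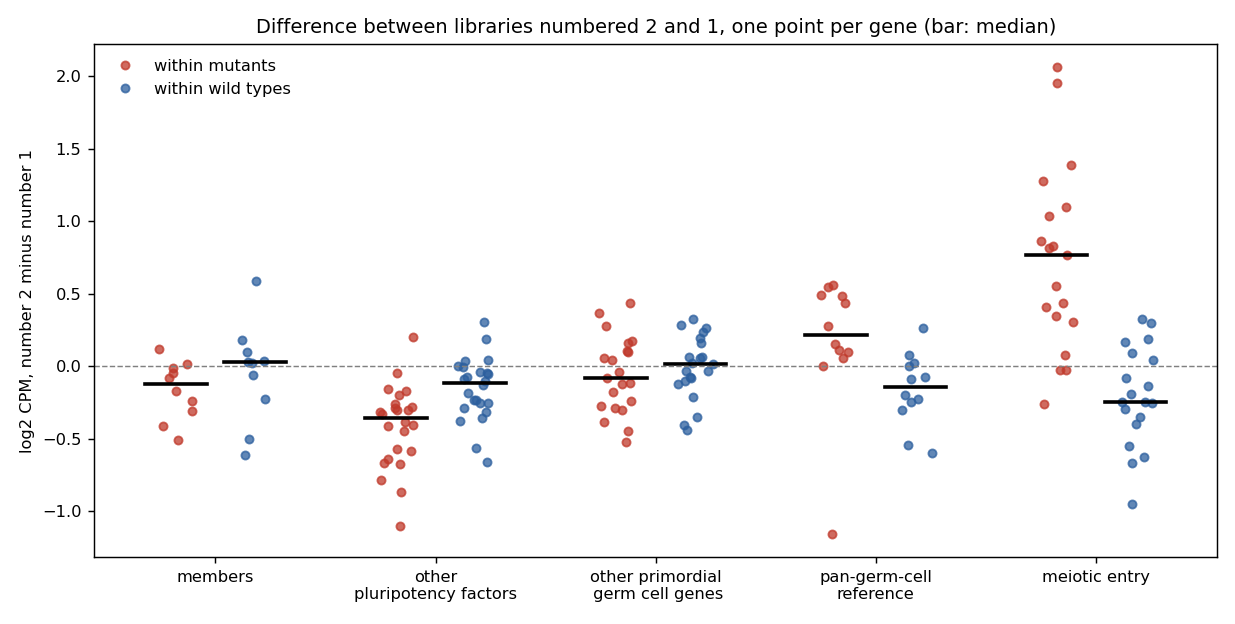
Difference in log2 CPM between the libraries numbered 2 and 1 (y axis) for each tested gene of 5 lists, within the mutants in red and within the wild types in blue, with bars at the medians. Pluripotency factors lie mostly below 0 in both genotypes, with medians of -0.36 and -0.11, whereas meiotic genes lie mostly above 0 in the mutants and mostly below 0 in the wild types, with medians of 0.77 and -0.25.

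Markers of other tissues moved with the library number as well. All 7 skeletal muscle markers were called lower in number 2, and their summed level was 40.7 and 8.97 CPM in mutant replicates 1 and 2 and 228 and 13.1 CPM in the wild types. Erythroid markers were lower in 8 of 8, of which 6 were called, with summed levels of 3228 and 886 CPM in the mutants and 3579 and 1745 CPM in the wild types. Macrophage markers were lower in 7 of 7, of which C1qa and Mrc1 were called (edgeR, adjusted p = 0.0231 and 0.0175), with summed levels of 85.6 and 51.4 CPM in the mutants and 67.9 and 50.8 CPM in the wild types. Markers of mesonephric duct and tubules went both ways, Cdh16 being called higher at 1.90 and Cdh1 lower at -0.55 on the log2 scale. Which cells of the ovary made Cdh1 was not tested. Of the gonadal somatic lists, 1 pre-granulosa marker, Runx1, was called lower at -0.40 and 1 Sertoli marker, Cst9, higher at 1.99, and of 9 endothelial markers 0 were called. Sox2 is also made by glia of the neural crest. Of 5 tested glial markers 4 were lower in number 2 and 1 was called, Sox10, with 13 and 0 counts in the mutants and 67 and 4 in the wild types, while the summed level of the 5 was 34.1 and 29.8 CPM in the mutants and 50.9 and 34.4 CPM in the wild types. Foxd3, Th and Dbh of the same list had 0 to 10 counts. Sox2 lies within an intron of Sox2ot on the same strand without shared exon bases, and Sox2ot had 31 to 63 counts, with no difference that passed in either comparison. The part of these tissues in the values of the 10 genes was not tested.

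The mean profile of the 10 genes over the 4 libraries, centered on each gene, was highest in mutant replicate 1 at 0.13 and lay between -0.066 and -0.022 in the other libraries on the log2 scale. Among 10115 genes with at least 10 CPM on average, the nearest profiles by Euclidean distance over the 4 libraries were those of Tmem63b, March7 and Abcc1, at 0.011, 0.015 and 0.022. The mean profile averages genes that differ in opposite ways, and the distances describe 4 libraries only.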

How the data were processed

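Whole ovaries of mouse embryos at E13.5 were sequenced in 4 libraries. Per the labels and the study's methods, the authors aligned the reads with STAR 2.6.1d, with mm9 named as the build, and made read counts per gene symbol with summarizeOverlaps. The deposited values are these raw counts. The annotation and the strand and overlap settings are not given in the sources used here. The members and gene lists were chosen with earlier results of these data known.

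Genes were filtered with filterByExpr, normalized by TMM and tested across all 15442 genes with the quasi-likelihood test of edgeR 4.0.16 in R 4.3.3, with Benjamini-Hochberg adjustment at 0.05. The genotype fit held genotype alone, and the number fit held genotype and replicate number, which leaves 1 residual degree of freedom. The standard error of a change was its size divided by the square root of F. DESeq2 1.42.0, the tool of the study, other scalings, filters and thresholds, a replicate block and leaving out each library were alternatives. Within a genotype, libraries were compared as log2 CPM (prior count 2). Nothing says that libraries came from separate litters, so p-values measure the spread between these libraries only, and intervals and floors cover no more than that. Libraries of a genotype differed beyond sampling noise (chi-square per degree of freedom 9.40 and 10.7). Besides the members and Sall1, the rule named the 4 genes of each list with the smallest p, every called gene of a list and the 3 nearest profiles. Sycp3, Dazl, Kitl, Amh, Sox2ot, Nanos2, Dnmt3l and the untested glial genes given were named after their values were seen. Exon lengths came from GENCODE M1 by symbol, with Tfap2c matched as Tcfap2c. Values of some listed genes are not reported here.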

Additional observations from a re-analysis of the deposited data

How the results depend on the processing

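In the genotype comparison the number of members called stayed at 0 under all 14 alternatives. The number of all genes called, 9, became 31 with germ cell reference scaling, 105 with DESeq2, 134 with the likelihood ratio test, 28 with no filter, 19 with at least 10 counts in every library and 20 at an adjusted p under 0.1. It ranged from 4 to 130 with a library left out (130 without mutant replicate 1, 38 without mutant replicate 2, 7 without wildtype replicate 1 and 4 without wildtype replicate 2). For the other listed genes the 0 called became 5 with DESeq2 and 7 with the likelihood ratio test, and ranged from 0 to 11 with a library left out. The replicate numbers are not stated to mark a litter, and deviations of same-numbered libraries from their group means correlated at 0.481 across genes. With the replicate block 0 members, 385 of all genes and 21 listed genes were called, and with DESeq2 and the replicate block 0, 118 and 7. Bmp4 was among the listed genes called with the replicate block (log2 fold change 0.99, edgeR adjusted p = 0.0198). Library identifiers in the column names run consecutively within a replicate number. The lone library of a reduced group was assumed to vary like the other group.

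No member change in the genotype comparison passed, and 5 turned sign. Dnd1 became 0.012 with germ cell reference scaling, and with a library left out the ranges of the log2 fold change were -0.096 to 0.096 for Dnd1, -0.18 to 0.32 for Sox2, -0.0076 to 0.24 for Dppa3, -0.029 to 0.59 for Tfap2c and -0.41 to 0.20 for Nanog. In the comparison by number the 2 members called became 0 with DESeq2, 1 with no filter (Sox2 at an adjusted p of 0.0513) and 0 with no genotype term, and were 2 under each of the other 6 alternatives with a test. All genes called, 662, became 124 with DESeq2, 4 with no genotype term and 1036 at an adjusted p under 0.1. Germ cell reference scaling shifted the median of all genes by number to -0.22 and turned Nanog to -0.040, Dnd1 to -0.11, Nanos3 to -0.20 and Ddx4 to -0.10, while Sox2 and Tfap2c passed at -0.67 and -0.77. The reference genes themselves differed by number, so these values are not corrected for the amount of germ cells. With a library left out, which leaves no residual degrees of freedom and so no test, Pou5f1 ranged from -0.15 to 0.038, Kit from -0.060 to 0.032 and Nanog from -0.29 to 0.60. Among the members other than Ddx4, 1 had groups that did not overlap relative to the reference, Nanos3. With Ddx4 alone as the reference these were 2 other genes, Pou5f1 and Dnd1. Ddx4 itself did not overlap relative to the reference either. The overlapping neighbours in the order of levels, 4, were 3 with the longest transcript, and the pairs changed. They were then Kit with Dnd1, Sox2 with Tfap2c and Nanos3 with Nanog, and only the last pair overlapped with both lengths. The cause of these changes was not tested.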
